A study of Arabidopsis thaliana with 64 samples.

Results

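The mitochondrial genome transcripts of these seedlings were taken as the loci whose identifier starts with ATMG, the prefix of the Arabidopsis mitochondrial genome, and that collected at least 50 read counts over all libraries. Of 152 ATMG loci in the count tables, 113 had at least 1 count and 35 reached that minimum, out of 32833 loci in all. The rule used total counts and no difference between groups. Just inside the minimum lay ATMG01330 and ATMG00040 with 50 counts each, and just outside it lay ATMG00570 with 46 and ATMG00010 with 44.

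The study asked which genes change when a transcription factor (TF) is moved into the nucleus. CHA19 (a chromatin remodeling protein), ENAP1 (an EIN2 nuclear associated protein), LBD16 (a lateral organ boundaries domain protein) and WRI3 (a WRINKLED protein with AP2 domains) were each fused to the glucocorticoid receptor (GR), which holds the fusion in the cytosol until dexamethasone (Dex) binds it. The fusions were expressed in Col-0 from the constitutive 35S promoter, and T3 seedlings spent 5 days in the dark and then 24 h on 10 µM Dex or on mock medium, still in the dark. Whole seedlings of 4 independent insertion lines per GR-TF gave 2 libraries with Dex and 2 with mock from each line, 64 in all, each sequenced in 2 runs. The lines were 5, 7, 8 and 9 of GR-CHA19 (which the series text writes without GR), 1, 2, 4 and 5 of GR-ENAP1, 3, 8, 11 and 12 of GR-LBD16, and 8, 10, 17 and 21 of GR-WRI3. Every library carried a GR-TF transgene, so an effect of Dex itself and an effect of the fusion cannot be told apart here.

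Plant mitochondria keep a small genome of their own that encodes a few subunits of the respiratory chain complexes and of ATP synthase, proteins of cytochrome c maturation, some ribosomal proteins, and the ribosomal and transfer RNAs of the organelle. Most other mitochondrial proteins, including the phage-type RNA polymerases that transcribe this genome, are encoded in the nucleus. Unlike nuclear mRNAs, plant mitochondrial transcripts carry no stable poly(A) tail, and a tail there marks a transcript for decay. The libraries were made from RNA caught on poly(T) beads, so the counts described here are those of mitochondrial molecules that such beads retained, and they do not measure the whole mitochondrial RNA pool.

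A large part of the Arabidopsis mitochondrial genome also lies in the nucleus, so a read from such a stretch maps to both genomes. In the reference (RefSeq, TAIR10.1), 67.6% of all 100-base windows of the 367808-base mitochondrial genome had an exact copy in a nuclear chromosome, and 98.6% of the 253264 nuclear windows concerned lay on chromosome 2. There they formed a block at chr2:3239038-3509765 of 270728 bases, in which 92.3% of the windows were shared. To show what a read of this length can and cannot tell apart, the first 100 bases of the coding part of AT2G07727 (chr2:3450863-3450962, plus strand) are set beside the matching stretch of the apocytochrome b gene cob on the minus strand of the mitochondrial genome (bases 182759 to 182858). These 2 stretches did not differ at any position. The reads were aligned to TAIR10, whose mitochondrial sequence may differ from the one in this reference, so the windows and stretches shown describe the RefSeq sequences only.
AT2G07727: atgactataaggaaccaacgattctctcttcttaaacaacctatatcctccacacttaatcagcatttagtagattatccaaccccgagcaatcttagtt
cob: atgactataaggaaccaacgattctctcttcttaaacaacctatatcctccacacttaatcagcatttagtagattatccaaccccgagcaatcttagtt

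The second pair shows a stretch where a read can be placed. It comes from AT2G07715 (chr2:3411625-3411724, plus strand) and from the ribosomal protein gene rpl2 on the minus strand of the mitochondrial genome (bases 222066 to 222165). The capitals mark the 2 positions at which the stretches differed.
AT2G07715: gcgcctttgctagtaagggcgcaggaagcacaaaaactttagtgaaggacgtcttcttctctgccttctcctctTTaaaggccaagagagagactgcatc
rpl2: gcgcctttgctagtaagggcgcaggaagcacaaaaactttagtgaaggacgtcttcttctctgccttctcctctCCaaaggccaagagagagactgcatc

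The counts were then set beside the annotation of nuclear copies. The annotation names 53 ATMG loci beside a nuclear locus as its mitochondrial counterpart, and 5 of these (9.43%) reached 50 counts, against 30 of the 99 loci not named so (30.3%). Of the 48 named loci below the minimum, none had more than 40 counts over the 64 libraries. Loci at 0 were about as frequent in both sets, at 12 of the 53 named (22.6%) and 27 of the 99 others (27.3%). ATMG00220 (apocytochrome b) had 2 counts, while its nuclear copy AT2G07727 had 115. ATMG00730 (cytochrome c oxidase subunit 3) had 10 counts, and its copy AT2G07687 had 41. The reverse was as common, as ATMG00960 had 40 counts and its copy 2, and ATMG01320 had 95 and its copy 0. Over the 46 pairs with both loci in the files, the nuclear locus had more counts in 21, the ATMG locus in 20, and 5 were equal. The pairs named here were chosen after their counts were seen. How reads that map to several places were counted is not given in the sources used here, so a low count of a locus with a nuclear copy cannot be read as a low transcript level.

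**Figure D1:**
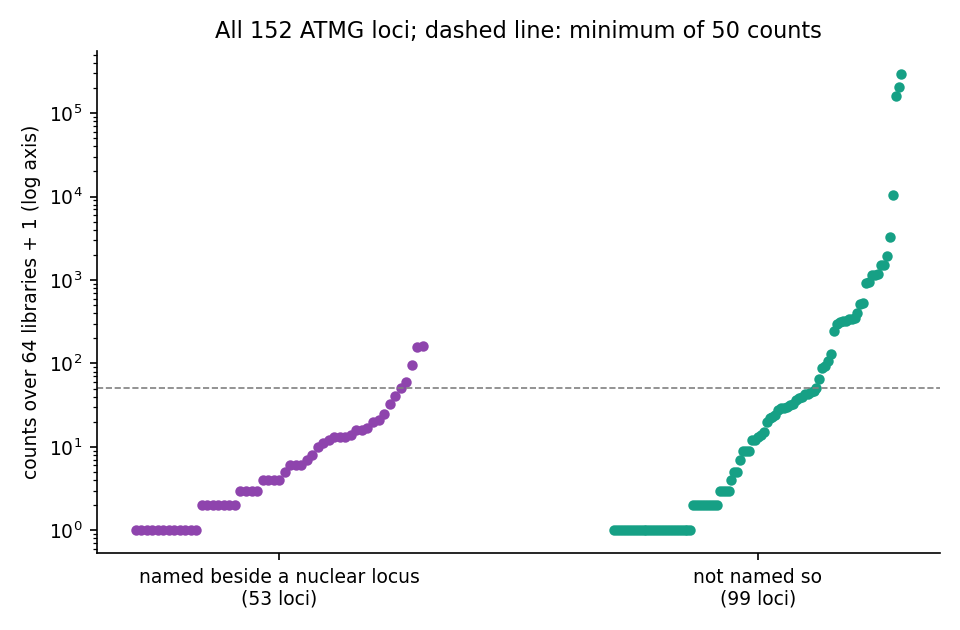
Each point is 1 of the 152 ATMG loci, placed by its counts over all 64 libraries plus 1 (log axis), with the 53 loci that the annotation names beside a nuclear locus on the left and the 99 others on the right. The dashed line is the minimum of 50 counts, which 5 loci on the left and 30 on the right passed.

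Only those 5 of the 35 members have a description in the reference. ATMG00560 (157 counts) is described as a nucleic acid-binding protein with an OB-fold and matches the region of rpl2. ATMG01320 (95 counts) is described as NADH dehydrogenase 2B, a subunit of respiratory complex I, and ATMG01090 (59 counts) as ATP synthase subunit 9. The mitochondrial match of the nuclear partner of ATMG01090 overlapped no mitochondrial gene of the reference. The match for ATMG01080 (3 counts, not a member) overlapped atp9, so the description does not show that ATMG01090 is atp9. ATMG01220 (162 counts) is an unknown protein, and ATMG01330 (50 counts) is named as the counterpart of a nuclear pseudogene. The other 30 members are given here by identifier, since neither the count tables nor the reference pairs them with a gene name or a length. For that reason their CPM values are shares of reads and were not compared between loci per length.

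Nearly all of the reads came from 3 loci. ATMG00020 had 297713 counts (43.1% of the 690527 counts of all members), ATMG01390 had 203361 (29.5%) and ATMG00030 had 160233 (23.2%), which together made up 95.8%. The fourth, ATMG00090, had 10547 counts (1.53%), ATMG00080 had 3313 and ATMG01360 had 1922. The next 6 by mean CPM (the counts of a locus as a share of all counts of its library, scaled to 1000000) were ATMG01380, ATMG00070, ATMG01370, ATMG00160, ATMG00060 and ATMG00640, with 949 to 1530 counts. Every one of these 12 was seen in each of the 64 libraries, as were ATMG00650 and ATMG01170, while the other 21 members were at 0 in at least 1 library.

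**Figure D2:**
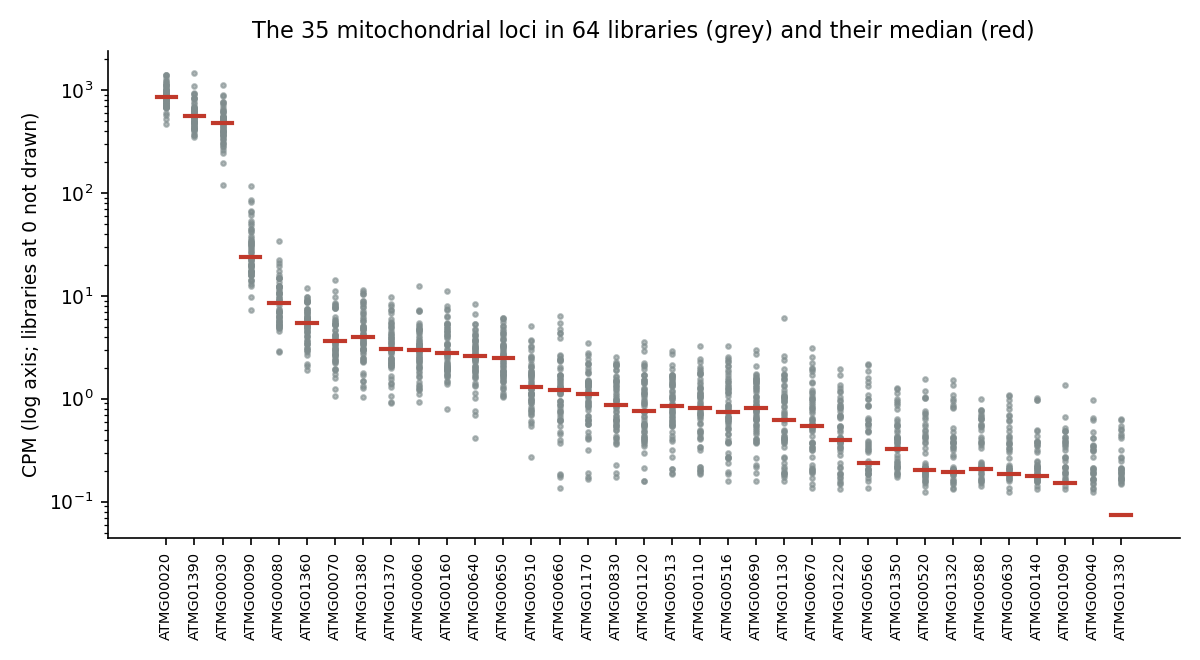
Grey points give the CPM of each member in each of the 64 libraries on a log axis, with libraries at 0 left out, and red bars give the median over the 64. The 3 loci on the left lay between 118 and 1464 CPM, ATMG00090 between 7.23 and 117 CPM, and the medians of the other 31 at 8.49 CPM or lower.

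The libraries themselves were uneven and this touches every result below. Total counts lay between 2059928 and 7968970 with a median of 5292626, and 8 libraries stood apart, meaning that the median distance of their genes from the other libraries of the same GR-TF was more than 2 times the usual distance. They were GR-CHA19 line 7 Dex replicate 1 (6.37 times) and line 8 Dex replicate 1 (2.32), GR-ENAP1 line 2 Dex replicate 1 (2.89) and line 1 mock replicate 1 (4.30), GR-LBD16 line 3 mock replicate 1 (5.93) and line 12 mock replicate 2 (2.21), and GR-WRI3 line 8 Dex replicate 1 (3.68) and line 10 Dex replicate 2 (2.57). The gene behind each fusion was higher in all 16 libraries of its own lines than in any of the other 48. PORA, the protochlorophyllide reductase of dark-grown seedlings, was read at 26.9 to 1932 CPM, the light-harvesting gene LHCB1.1 at 2.73 to 898 CPM and the endodermal root gene SCR at 34.0 to 88.6 CPM. Of the other root genes looked at, SHR lay at 22.2 to 42.3 CPM and PYK10 at 402 to 3793 CPM. WER (median 1.48 CPM) and COBL9 (median 0.216 CPM) were at 0 in at least 1 library. Of the other dark-grown and light-grown markers, PORB lay at 85.7 to 2033 CPM, LHCB1.2 at 1.61 to 634 CPM and RBCS1A at 699 to 4049 CPM. The genes listed for the shoot, STM, ATML1 and GL2, had medians of 15.9, 76.6 and 3.62 CPM. PORA was highest and LHCB1.1 lowest in libraries that stood apart.

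The members as a whole took between 1113 and 3609 CPM of a library, with a median of 1951. Both ends were replicates of 1 line and treatment, GR-CHA19 line 7 with Dex, where replicate 1 had 3609 CPM and replicate 2 had 1113 CPM, against 1959 and 1717 CPM in the 2 mock libraries of that line. The 8 libraries that stood apart had a median of 2585 CPM and the other 56 a median of 1894 CPM, and their ranges overlapped. Chloroplast transcripts lay between 7818 and 24170 CPM, with a median of 19181 CPM in the 8 libraries and 12741 CPM in the 56. In whole seedlings, fewer cells of a type and less RNA per cell cannot be told apart.

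The smaller loci varied more than the 3 large ones. The sum of the other 32 members lay between 30.0 and 263 CPM with a median of 70.4, which is 8.78-fold, whereas the sum of the 3 large loci varied 3.18-fold. The libraries that stood apart held 68.5 to 263 CPM (median 163) for the 32 loci, and the other 56 held 30.0 to 145 CPM (median 67.5). The 32 loci made up 2.54 to 15.2% of the members' counts, with the highest share in GR-LBD16 line 3 mock replicate 1. Nuclear copies of mitochondrial sequence were read at 6.09 to 21.7 CPM in the 8 libraries and 2.78 to 14.1 CPM in the 56, and these ranges overlapped. Whether the copies and the 32 loci varied together from library to library was not tested. The part of library quality in these differences was not tested.

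The 3 large loci did not keep 1 ratio to each other. ATMG00030 ran from 118 CPM in GR-LBD16 line 3 mock replicate 1 to 1126 CPM in GR-ENAP1 line 2 Dex replicate 2, a 9.52-fold range, while ATMG00020 ran from 466 to 1407 CPM (3.02-fold) and ATMG01390 from 349 to 1464 CPM (4.19-fold). The counts of ATMG01390 divided by those of ATMG00030 lay between 0.553 and 4.46 with a median of 1.18. The 3 highest of these ratios were in libraries that stood apart, namely GR-ENAP1 line 1 mock replicate 1 (4.46), GR-LBD16 line 3 mock replicate 1 (4.17) and GR-CHA19 line 7 Dex replicate 1 (3.09), and without the 8 libraries the range was 0.553 to 2.37. The 2 libraries with the lowest ratio (0.553 and 0.603) were both of GR-ENAP1 line 4 with Dex. ATMG01390 and ATMG00020 kept closer, at a ratio of 0.468 to 1.28.

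**Figure D3:**
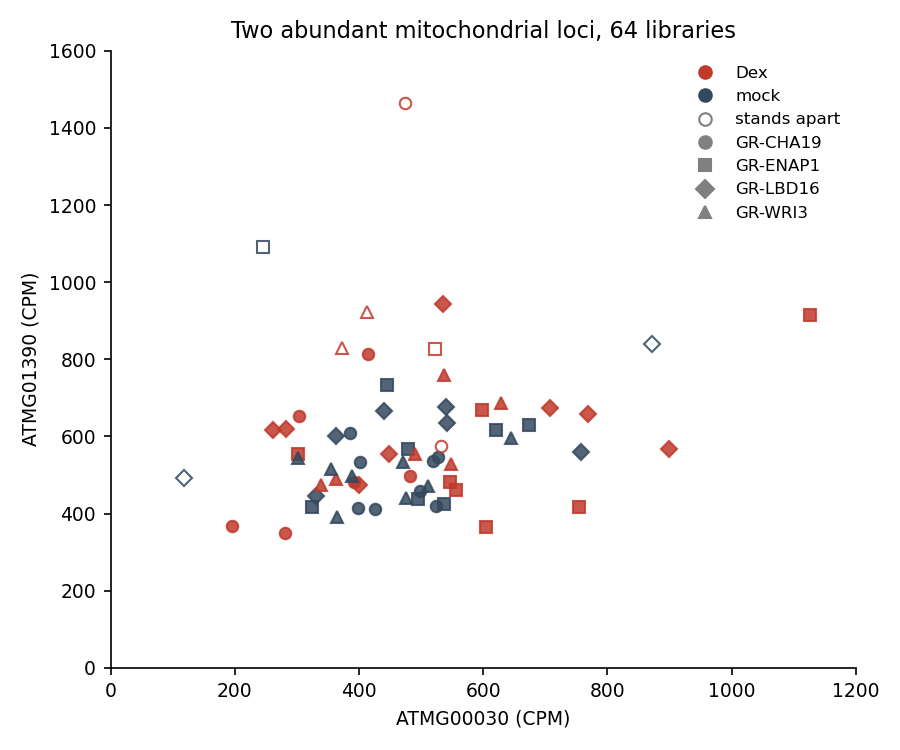
ATMG01390 (vertical axis) is plotted against ATMG00030 (horizontal axis), both in CPM, with 1 point per library, red for Dex and blue for mock, a shape per GR-TF, and open points for the 8 libraries that stand apart. Open points at upper left have little ATMG00030 for their ATMG01390, up to the ratio of 4.46 in GR-ENAP1 line 1 mock replicate 1.

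Dex was compared with mock within each GR-TF, as the mean of the 4 lines, with the quasi-likelihood F-test of edgeR and Benjamini-Hochberg adjustment over all genes tested. No member passed an adjusted p of 0.05 in any of the 4 GR-TFs. GR-CHA19 had 15 members tested and none with an unadjusted p under 0.05, where 14% of all genes had one and 0% were called. GR-ENAP1 had 1 of 19 with such a p, beside 1.81% of all genes, and again 0% were called. GR-LBD16 had 0 of 19, beside 6.31% of all genes with such a p and 0% called. In GR-WRI3 the number was 8 of 19, beside 15.5% of all genes, of which 0.0273% (5 of 18311) were called. DESeq2 called 0 members in each, and at most 0.153% of all genes (GR-WRI3; 0.00535% for GR-LBD16). A negative binomial regression fitted gene by gene (glm.nb), the type of model the authors used, called 11 members, all of GR-WRI3. All 11 were higher with Dex, where it called 25.9% of all genes and 15.8% as higher. Among these 11, ATMG00510, ATMG00660, ATMG01120 and ATMG01130 passed the filter on low counts through Dex libraries only, so their direction says nothing further. In the other GR-TFs glm.nb called 0 members, beside 31.3% of all genes for GR-CHA19, 1.58% for GR-ENAP1 and 13% for GR-LBD16. The Dex and mock libraries overlapped in CPM for each of the 35 members in each GR-TF. Among all genes with counts, the share that did not overlap was 0.0383% for GR-CHA19, 0.00753% for GR-ENAP1, 0.00378% for GR-LBD16 and 0.0338% for GR-WRI3.

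These counts of 0 depended on single libraries. Without the replicate of a library that stands apart, 7 members were called for GR-CHA19 (line 7 Dex replicate 2 left out), 4 for GR-LBD16 (line 3 mock replicate 2) and 8 for GR-WRI3 (line 8 Dex replicate 2). The library that stands apart was then alone for its line and treatment, and 45.1%, 44.5% and 25.4% of all genes were called in those fits. Of the members called in those fits, ATMG00660, ATMG00510, ATMG00560 and ATMG00516 of GR-CHA19 were not among those tested with all 16 libraries. Nor were ATMG01220 of GR-LBD16 and ATMG00516 of GR-WRI3. How many members those fits tested is not given here, so their calls cannot be set directly beside the counts of 0. Without a filter on low counts, 3 members were called for GR-WRI3, beside 6.01% of all genes.

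**Figure D4:**
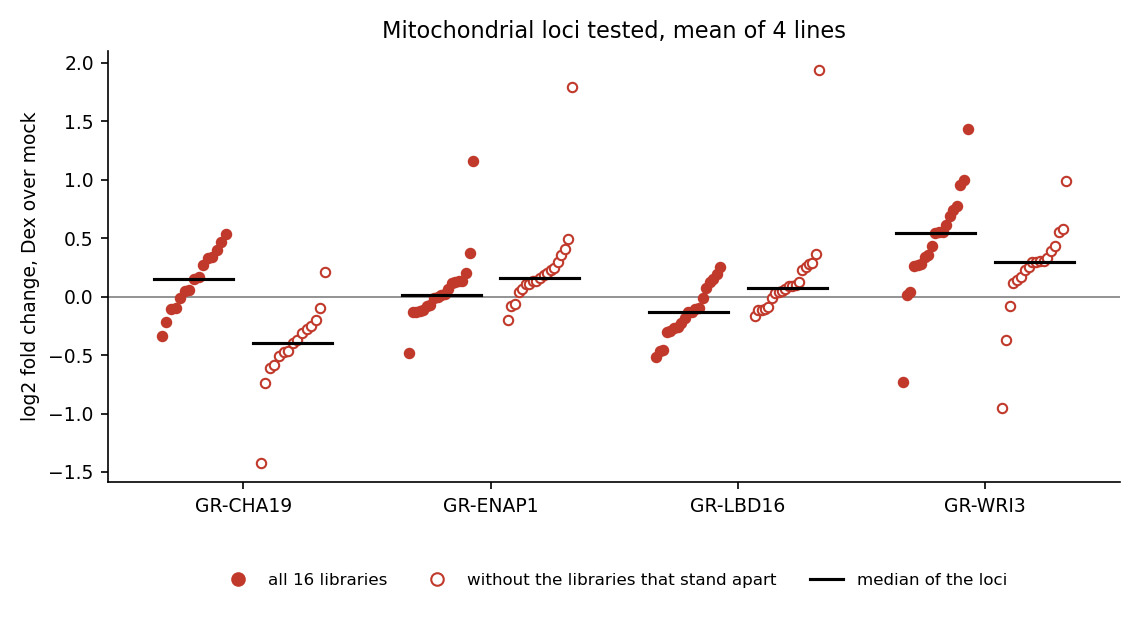
Each point is the log2 fold change of Dex over mock of 1 member tested, as the mean of the lines, from all 16 libraries of a GR-TF (filled) or without the libraries that stand apart (open), and bars give the median over the loci. The filled and open medians were 0.15 and -0.40 for GR-CHA19, 0.02 and 0.16 for GR-ENAP1, -0.13 and 0.08 for GR-LBD16, and 0.54 and 0.30 for GR-WRI3.

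In GR-WRI3, 18 of 19 members tested had a positive log2 fold change with a median of 0.54, beside a median of 0.01 over all genes. Part of this count was set by the filter on low counts, which asked for 2 libraries at 1.87 CPM or more. ATMG00510, ATMG00660, ATMG01120 and ATMG01130 reached it through Dex libraries only and ATMG01170 through mock libraries only, so their directions say nothing further. The 14 members that reached it in both treatments were all higher with Dex, at a median of 0.39, and 5 of them had an unadjusted p under 0.05. Of all 19, 8 had one and were higher with Dex, where 9.34% of all genes tested were both. The 8 were ATMG00020, ATMG01390, ATMG00090, ATMG00080, ATMG00160 and ATMG01120, together with ATMG00510 and ATMG00660, which were named after their values were seen. Their lowest adjusted p was 0.301 in edgeR's quasi-likelihood test. Without the 2 GR-WRI3 libraries that stand apart, both of them Dex libraries, the median was 0.30, 15 of 18 members were higher and 2 had an unadjusted p under 0.05.

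ATMG00090 had 17.5, 31.3 and 66.6 CPM as the lowest, median and highest of the 8 Dex libraries of GR-WRI3, against 12.4, 18.5 and 31.2 CPM in the 8 mock libraries. The median of the Dex libraries thus lay at the highest mock library, although the groups overlapped and the top value came from line 8 Dex replicate 1, which stood apart. The fold change was 0.69 ± 0.23 (SE) on the log2 scale, with the unadjusted p at 0.009 and the adjusted p at 0.301 by edgeR, and it was positive in 4 of 4 lines (0.58 to 0.80). Without the libraries that stand apart it was 0.43 with an adjusted p of 0.709.

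ATMG00020 had 726, 1025 and 1234 CPM in the Dex libraries of GR-WRI3 (lowest, median, highest), against 684, 796 and 1052 CPM in the mock libraries. ATMG01390 had 473, 620 and 923 CPM with Dex, against 391, 507 and 596 CPM with mock. The log2 fold changes were 0.28 ± 0.11 for ATMG00020 and 0.34 ± 0.12 for ATMG01390 (SE, adjusted p of 0.301 for both by edgeR), and all 4 lines were higher for each. The third large locus did not share this, as ATMG00030 averaged 461 ± 105 CPM with Dex and 439 ± 109 CPM with mock (SD, 8 libraries each), a log2 fold change of 0.04 ± 0.19.

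Among the smaller loci of GR-WRI3, ATMG01120 had a fitted fold change of 1.44 ± 0.37 (adjusted p of 0.301 by edgeR), which is given as a description because the locus passed the filter through 2 Dex libraries and 0 mock libraries. It had 0.397, 1.34 and 3.25 CPM with Dex, against 0.158, 0.402 and 0.741 CPM with mock (lowest, median, highest of 8). A library's floor of 3 counts corresponds to 0.376 to 1.46 CPM, so most mock values of ATMG01120 rest on a few reads each. ATMG01130, which passed in the same way, was at 0.99 ± 0.54. ATMG01170, which passed through mock libraries only, was the 1 member tested with a negative value, -0.73 ± 0.45. ATMG00110 was at 0.02 ± 0.44. The remaining members among the 12 most abundant lay between 0.27 for ATMG01380 and 0.74 for ATMG01370, with ATMG00080 at 0.55, ATMG01360 at 0.35, ATMG00070 at 0.54, ATMG00160 at 0.55, ATMG00060 at 0.62 and ATMG00640 at 0.43.

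In GR-CHA19 the direction turned on a single library. With all 16 libraries, 10 of 15 members were higher with Dex and the median was 0.15, where the median over all genes was 0.02. ATMG00513 passed the filter on low counts through Dex libraries only, so its direction says nothing further. Without line 7 Dex replicate 1, 1 of 15 was higher and the median was -0.25, and without line 8 Dex replicate 1 as well, 1 of 15 was higher and the median was -0.40. ATMG00090 had 117 CPM in line 7 Dex replicate 1 and 7.23 CPM in its replicate, the highest and the lowest value of the locus among all 64 libraries, against 27.5 and 17.1 CPM in the mock libraries of that line. Its fold change was 0.54 ± 0.41 with all libraries and -0.37 without both.

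ATMG00030 had the most negative value in GR-CHA19 and was lower with Dex in each of the 4 lines. ATMG01170 was the other member with 1 sign in all 4 lines, higher in each, at 0.40. ATMG00030 had 196, 404 and 533 CPM as the lowest, median and highest of the 8 Dex libraries, against 386, 461 and 526 CPM in the mock libraries. The fold change was -0.33 ± 0.19 (adjusted p of 0.394 by edgeR), at -0.62, -0.37, -0.23 and -0.12 in the 4 lines, and -0.61 with an adjusted p of 0.216 without the 2 libraries that stand apart. The other values at the ends of the GR-CHA19 list were ATMG00080 at 0.47 ± 0.35 and ATMG01360 at -0.21 ± 0.28.

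In GR-ENAP1 the 4 lines differed in direction. Line 2 was higher with Dex for 19 of 19 members with a median of 0.68, and line 4 for 5 of 19 with a median of -0.43. The members' sum in line 2 was 2762 and 3570 CPM with Dex, against 2143 and 1875 CPM with mock, so both Dex libraries lay above both mock libraries, and the first of them stood apart over all genes. ATMG00516 was the member with an unadjusted p under 0.05 in GR-ENAP1, but it passed the filter (2 libraries at 2.05 CPM) through Dex libraries only, so its values are a description. Its fold change was 1.16 ± 0.47 (adjusted p of 1 by edgeR), with 0.505, 1.05 and 3.28 CPM with Dex, against 0, 0.542 and 1.58 CPM with mock (lowest, median, highest of 8). All 4 lines were higher. ATMG00030 was at 0.37 ± 0.27 and ATMG01370 at -0.14 ± 0.27. ATMG00830, at -0.48 ± 0.40, passed the filter through mock libraries only, as did ATMG00660 and ATMG01120, and ATMG01170 passed through Dex libraries only. The directions of these members say nothing further.

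In GR-LBD16 the median over 19 members was -0.13 and 5 were higher with Dex. ATMG00516 passed the filter on low counts through mock libraries only, so its direction says nothing further. Line 3 had the lowest line median, -0.94, with 2 of 19 members higher, and its mock replicate 1 stood apart. ATMG00090 had 80.8 CPM in that library, against 23.8 CPM in the second mock library of the line and 22.2 and 16.9 CPM in its Dex libraries. Without the 2 libraries that stand apart the median over the members of GR-LBD16 was 0.08, and 14 of 20 were higher. The ends of the list were ATMG00160 at -0.51 ± 0.29, ATMG01370 at -0.46 ± 0.29, ATMG00020 at 0.19 ± 0.23 and ATMG00670 at 0.25 ± 0.47, with the lowest adjusted p of these at 0.621 by edgeR.

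**Figure D5:**
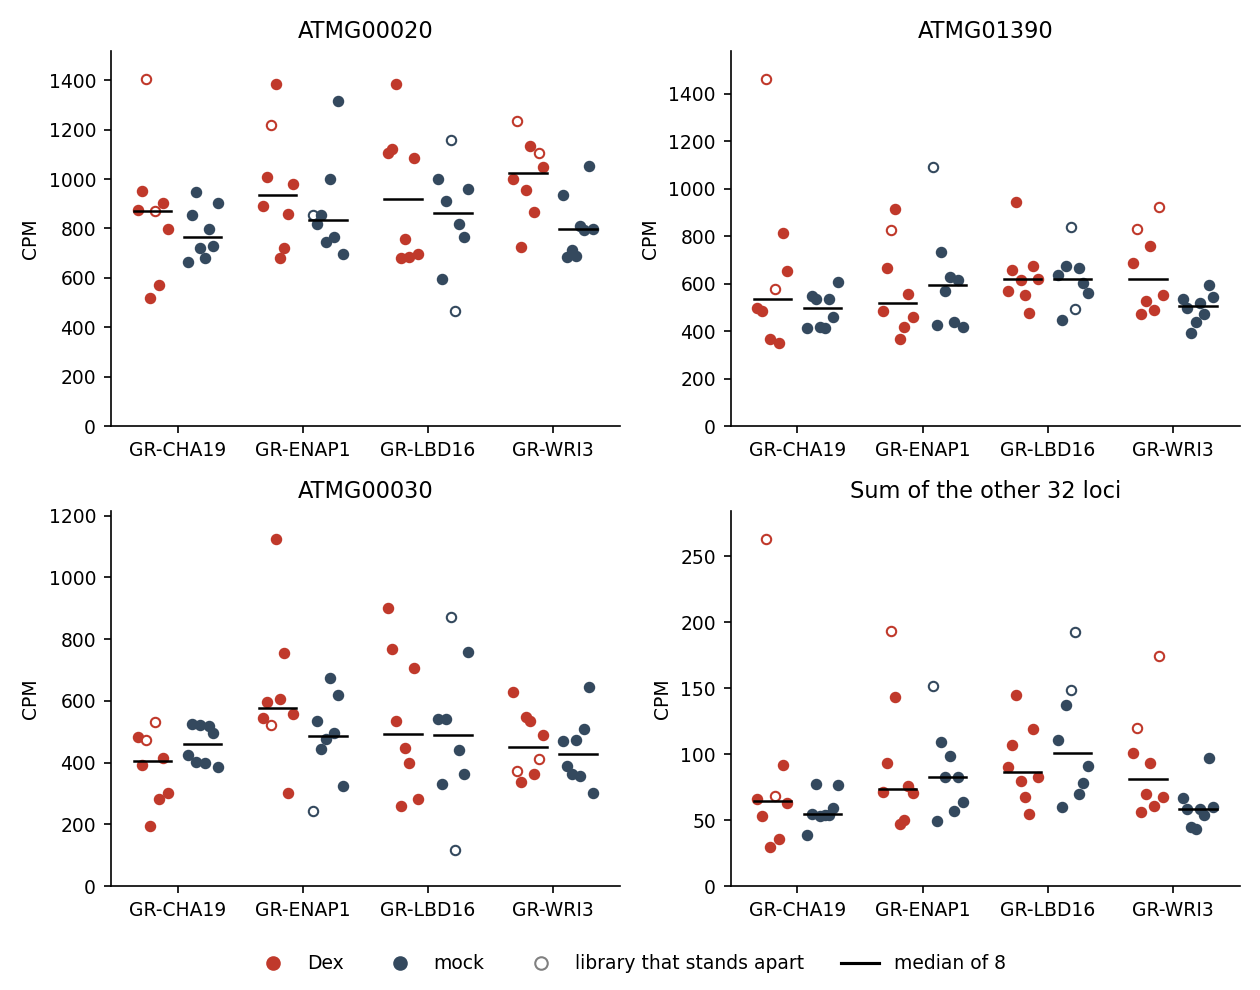
CPM of ATMG00020, ATMG01390, ATMG00030 and of the sum of the other 32 members in each library, by GR-TF, with Dex (red) left of mock (blue), open points for the libraries that stand apart and a bar at the median of 8. Dex and mock points overlap in every panel and GR-TF, and the sum of the 32 loci reaches 263 CPM in GR-CHA19 line 7 Dex replicate 1.

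Whether the Dex effect differed between the insertion lines was asked with the interaction contrasts of the same edgeR fit. No member was called in any GR-TF, where 0% of all genes tested were. An unadjusted p under 0.05 was found for 1 member of GR-ENAP1 (5.12% of all genes) and 1 of GR-LBD16 (2.38%), and for 0 of GR-CHA19 (2.31%) and 0 of GR-WRI3 (2.65%). Whether levels differed between lines, over both treatments, gave 0 members called in each GR-TF as well. The share of all genes called was 0.00547% for GR-CHA19, 0.0378% for GR-ENAP1, 0.0321% for GR-LBD16 and 4.81% for GR-WRI3. At an unadjusted p under 0.05 there were 4 members of GR-ENAP1 (9.33% of all genes) and 3 of GR-WRI3 (28.3%), and 0 of GR-CHA19 (7.56%) and GR-LBD16 (4.93%). Without the libraries that stand apart, 1 member differed between the lines of GR-CHA19 (ATMG00080, adjusted p of 0.0172 by edgeR, beside 23.6% of all genes) and 1 between those of GR-ENAP1 (ATMG00090, adjusted p of 0.0258 by edgeR, beside 3.59% of all genes).

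The mock libraries of the 4 GR-TFs were compared with each other, on the means of the 4 lines of each, by the edgeR F-test. Of 23 members tested, 4 differed, where 38.4% of all genes tested did. All 4 were among the smaller loci, and none of the 3 large ones was called. ATMG00090 had 41.9 ± 13.5 CPM in GR-LBD16, 31.4 ± 9.8 in GR-ENAP1, 19.6 ± 5.1 in GR-WRI3 and 18.1 ± 3.2 in GR-CHA19 (mean ± SD, n = 4 lines, adjusted p of 0.0162 by edgeR). ATMG00080 had 12.5 ± 2.5, 9.50 ± 2.1, 7.08 ± 1.5 and 6.53 ± 1.7 CPM in the same order of GR-TFs (adjusted p of 0.0227).

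ATMG00160 averaged 5.64 ± 1.95 CPM in GR-LBD16, 3.02 ± 0.76 in GR-ENAP1, 2.35 ± 0.75 in GR-WRI3 and 2.57 ± 0.35 in GR-CHA19 (adjusted p of 0.0116 by edgeR). ATMG01370 averaged 4.80 ± 1.28, 4.11 ± 0.93, 2.21 ± 0.41 and 2.73 ± 0.59 CPM in that order (adjusted p of 0.0168 by edgeR). All 4 loci were highest in GR-LBD16 and second in GR-ENAP1. The values within 1 SD of the mean overlapped between these 2 GR-TFs for each of the 4 loci. Every mock library that stands apart was of these 2 GR-TFs. ATMG00090 had 80.8 CPM in that of GR-LBD16 line 3 and 23.8 CPM in its replicate. In GR-ENAP1 line 1 it had 65.6 and 16.9 CPM. GR-LBD16 line 12 went the other way, with 48.9 CPM in the library that stands apart and 60.4 CPM in its replicate. Without the libraries that stand apart, 1 of 21 members was called (ATMG01370, adjusted p of 0.0495), beside 43.2% of all genes. With the Dex libraries in place of the mock libraries, 0 of 25 were called by edgeR and 0 had an unadjusted p under 0.05, beside 0.0516% of all genes called. The labels give no day of sowing or extraction, so the GR-TF and a batch cannot be told apart.

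Nuclear genes of the same organelle were read beside the members. Of 32 nuclear genes of the respiratory chain and the alternative oxidases, 28, 28, 29 and 27 were tested in GR-CHA19, GR-ENAP1, GR-LBD16 and GR-WRI3, and edgeR and DESeq2 called 0 of them with Dex in each. With edgeR, 6, 0, 0 and 4 had an unadjusted p under 0.05, beside 14%, 1.81%, 6.31% and 15.5% of all genes. In the same order, 27, 3, 0 and 26 were higher with Dex, at medians of 0.25, -0.11, -0.23 and 0.16. Without the libraries that stand apart, 19 of 28, 17 of 28, 11 of 28 and 19 of 29 were higher, at medians of 0.04, 0.01, -0.02 and 0.02. AOX1A, which encodes the main alternative oxidase, a route for electrons past the cytochrome pathway, had 44.1 ± 7.4 CPM with Dex and 41.3 ± 6.0 CPM with mock in GR-WRI3 (SD, 8 libraries each), at a log2 fold change of 0.05 ± 0.06. Between the mock libraries of the 4 GR-TFs, 16 of 28 genes of this list differed by the edgeR F-test, where 38.4% of all genes did.

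Of 10 nuclear genes for mitochondrial transcription, RNA editing and RNA decay, 9, 10, 10 and 9 were tested, and both tools called 0 in each GR-TF. An unadjusted p under 0.05 by edgeR was found for 0, 0, 0 and 1, beside 14%, 1.81%, 6.31% and 15.5% of all genes. Between the mock libraries of the GR-TFs, 4 of 10 differed by the edgeR F-test, where 38.4% of all genes did. Their medians were 0.14, -0.12, -0.34 and 0.16, and without the libraries that stand apart -0.02, -0.05, 0.09 and 0.08. AHG2, a poly(A) ribonuclease that shortens tails of mitochondrial mRNA, averaged 10.5 ± 2.1 CPM with Dex and 10.0 ± 2.0 CPM with mock in GR-WRI3. The gene with the unadjusted p under 0.05 was mtPNPase, a mitochondrial polynucleotide phosphorylase that degrades RNA, at 5.49 ± 7.07 CPM with Dex and 2.23 ± 0.81 CPM with mock in GR-WRI3 (0.92 ± 0.39, adjusted p of 0.312 by edgeR). Over the 64 libraries it ran from 1.02 to 105 CPM with a median of 2.80 CPM.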

How the data were processed

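Poly(A)-selected RNA from 64 libraries was read as unstranded 100-base single reads. The authors trimmed reads with Trim Galore 0.6.0, checked them with FastQC 0.11.7, aligned them to TAIR10 with STAR 2.7.0f and deposited raw counts per locus, as whole numbers, 1 table per GR-TF. The handling of reads that map to several places is not given in the sources used here. The 2 runs of a library were summed. CPM was taken over the library total.

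Groups came from the sample titles. Counts were tested per GR-TF with edgeR 4.0.16 (R 4.3.3; TMM, filterByExpr, robust quasi-likelihood F-test, line by treatment model), with Benjamini-Hochberg adjustment over all genes tested and a threshold of 0.05. Alternatives were DESeq2 1.42.0, glm.nb of MASS, other scalings, no filter, a replicate block, and each library left out. Tables were made with pandas 2.3.3. The tests were tried on simulated data. The outcome is not given here, so that trial does not show how they perform with libraries that stand apart. The methods call the replicates biological, and what replicates of a line shared (plate, day) is not given in the sources used here. Replicate libraries differed beyond counting noise (chi-square per gene of 1.56 or more), so each was kept.

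Members, gene lists and tests were chosen with earlier results of these data known. Members named with values were the 12 highest by mean CPM, the 2 highest and 2 lowest fold changes of Dex in each GR-TF, and those past a test. Lists of mitochondrial genes by role could not be used, since the sources do not pair most loci with genes. Sequences are from RefSeq (TAIR10.1).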

Additional observations from a re-analysis of the deposited data

Results flagged for a closer look

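In each of the 8 groups of 8 libraries, 6 measures that overlap in content were examined, and in 8 of these 48 cases 1 library lay apart from the rest of its group by Dixon's 95% criterion. Chance meets that criterion in about 1 in 20 independent groups, which these cases are not, and the 8 came from 5 different libraries. In 6 of the 8 cases the library stands apart over all genes. GR-CHA19 line 7 Dex replicate 1 was the high end of its group for the sum of the members (3609 CPM), the sum of the other 32 loci (263 CPM), ATMG01390 (1464 CPM) and ATMG00090 (117 CPM). ATMG01390 was also high in GR-ENAP1 line 1 mock replicate 1 (1091 CPM) and in GR-LBD16 line 12 Dex replicate 1 (943 CPM), of which the second does not stand apart over all genes. In GR-WRI3 line 8, ATMG00090 was high in Dex replicate 1 (66.6 CPM), and the sum of the other 32 loci was high in mock replicate 1 (97.3 CPM).

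Outside the members, 78 ATMG loci had between 1 count and the minimum and held 984 counts over all libraries, 0.142% of all ATMG counts.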

How the results depend on the processing

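No member was called with Dex under other scalings, the additive model, the replicate block or DESeq2. In GR-WRI3, no filter on low counts gave 3 called (ATMG00090, ATMG00080 and ATMG01390) and glm.nb 11. Of the 11, ATMG00510, ATMG00660, ATMG01120 and ATMG01130 passed the filter through Dex libraries only. Leaving out 1 library gave 0 to 7 called in GR-CHA19 (7 without line 7 Dex replicate 2), 0 to 0 in GR-ENAP1, 0 to 4 in GR-LBD16 (4 without line 3 mock replicate 2) and 0 to 8 in GR-WRI3 (8 without line 8 Dex replicate 2). In each of these 3 cases the library left out was the partner of one that stands apart, and many genes were then called (8691 of 19269, 8656 of 19442 and 4816 of 18965). Some of the members called in these cases were not among those tested with all 16 libraries, so the counts do not cover the same loci. With 1 library left out, the medians over members lay between -0.25 and 0.44, -0.09 and 0.15, -0.30 and 0.04, and 0.30 and 0.67. Line by treatment calls ranged over 0 to 3, 0 to 1, 0 to 4 and 0 to 0, and calls between lines over 0 to 6, 0 to 6, 0 to 2 and 0 to 8. Every highest count above 0 among these came from a fit without the partner of a library that stands apart. That library was then alone for its line and treatment. The share of all genes called by these tests in those fits is not given here, so these counts cannot be read as particular to the members.

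Without the libraries that stand apart, a setting chosen after seeing the data, 1 member differed between the lines of GR-CHA19, 1 between those of GR-ENAP1 and 1 between GR-TFs, against 4 with all mock libraries. Dex libraries in place of mock gave 0, and leaving out a line gave 3 to 5. Of 1198 fold changes of named members under an alternative, 129 had the other sign. The summed share was 70.4 CPM without the 3 large loci, against 1951 CPM, chosen after seeing the data in place of leaving out ribosomal RNA loci, which was not run because the reference does not pair them with loci. Same-numbered Dex and mock libraries correlated at -0.44 to 0.53 in their deviations. This cannot show whether the numbers pair samples, since libraries that stand apart enter these correlations. The replicate block left 0 members called with Dex in each GR-TF. Causes were not tested. At a floor of 3 counts (0.376 to 1.46 CPM), most of the smaller loci rest on few reads.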
